A study of Mus musculus with 8 samples.

Results

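The genes described here are 10 genes of ileal bile acid transport and of the bile acid receptor FXR, out of 41128 gene symbols in the deposited table: Slc10a2, Fabp6, Slc51a, Slc51b, Abcc3, Nr1h4, Fgf15, Nr0b2, Nr5a2 and Cyp27a1. They were chosen by symbol for their roles, and all 10 were found in the table. RNA was measured in whole-tissue sections of the ileum taken less than 6 cm from the ileocecal valve, 1 library per mouse, in 4 littermate couples of congenic FVB mice. Each couple held a Cftr null animal (Cftr -/-, allele Cftrtm1Cam, here KO) and a sex-matched control (Cftr N/N, here WT). Cftr encodes an epithelial chloride and bicarbonate channel, and its loss causes cystic fibrosis. Couples 1 and 3 (female) and couple 2 (male) were untreated, giving 3 WT and 3 KO libraries, and a further female couple had ciprofloxacin at 0.3 g/L and metronidazole at 0.5 g/L in the drinking water, giving 1 library of each genotype. All mice, WT included, were raised on a low-fibre diet with an osmotic laxative, which was withdrawn more than 4 days before sampling. The allele is a germline one, so the channel was missing in every organ and not in the ileum alone. The sources used here give neither ages nor the length of the antibiotic treatment.

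Bile acids are made from cholesterol in the liver, act in the small intestine as detergents for fat, and are recovered in the terminal ileum. Slc10a2 (ASBT) takes them up at the apical membrane of enterocytes, Fabp6 (IBABP) binds them in the cytosol, and the Slc51a-Slc51b dimer (OSTα-OSTβ) exports them towards the portal blood. Inside the cell they activate FXR, the nuclear receptor encoded by Nr1h4, whose known ileal targets include Fgf15, Nr0b2, Fabp6, Slc51a and Slc51b. FGF15 reaches the liver and represses bile acid synthesis, and SHP, the protein of Nr0b2, represses other nuclear receptors, among them LRH-1 (Nr5a2).

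The upstream sequences of the 4 main transport genes are shown because they differ in the nuclear receptor motifs they hold. They come from RefSeq on GRCm38.p6, in which 8 of the 10 genes have an entry; Fgf15 and Abcc3 have none in the table used. Each line gives the 250 bases before the RefSeq start, 5′ to 3′ on the strand of the gene (the minus strand in all 4). They lie at chr11:43601563-43601812 for Fabp6, chr16:32487880-32488129 for Slc51a, chr9:65422774-65423023 for Slc51b and chr8:5105288-5105537 for Slc10a2. Gene positions given below are from GENCODE, whose starts differ from these except for Slc51a. The GENCODE genes Slc51b (to 65422955) and Slc10a2 (to 5105351) reach into the printed bases. Capitals mark matches to an inverted repeat of the receptor hexamer (AGGTCANTGACCT, up to 2 mismatches) in Fabp6. In Slc51a and Slc51b they mark the hexamer itself (AGGTCA or its reverse complement TGACCT). In Slc10a2 they mark TGANTCA, which is looser than the AP-1 motif because it allows any base at N.
Fabp6: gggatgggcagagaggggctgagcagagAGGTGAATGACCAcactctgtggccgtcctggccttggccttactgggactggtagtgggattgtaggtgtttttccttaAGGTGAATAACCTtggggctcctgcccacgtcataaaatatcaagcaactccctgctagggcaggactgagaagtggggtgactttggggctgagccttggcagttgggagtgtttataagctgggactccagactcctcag
Slc51a: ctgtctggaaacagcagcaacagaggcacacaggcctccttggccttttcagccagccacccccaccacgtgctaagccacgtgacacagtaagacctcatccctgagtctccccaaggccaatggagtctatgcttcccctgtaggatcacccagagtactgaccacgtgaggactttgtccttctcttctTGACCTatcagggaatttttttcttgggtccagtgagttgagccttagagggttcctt
Slc51b: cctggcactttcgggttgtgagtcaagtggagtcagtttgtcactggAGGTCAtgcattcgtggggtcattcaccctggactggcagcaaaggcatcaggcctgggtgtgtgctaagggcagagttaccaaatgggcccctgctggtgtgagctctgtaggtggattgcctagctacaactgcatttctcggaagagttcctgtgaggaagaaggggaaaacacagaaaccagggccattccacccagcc
Slc10a2: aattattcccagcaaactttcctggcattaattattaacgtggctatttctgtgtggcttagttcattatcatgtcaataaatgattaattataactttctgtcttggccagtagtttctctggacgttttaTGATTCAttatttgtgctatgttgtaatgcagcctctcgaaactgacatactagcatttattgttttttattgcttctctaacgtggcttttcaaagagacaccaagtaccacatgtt
Motifs were searched on both strands from 250 bases before to 50 bases after the start; the hexamer forms each arm of the inverted repeat, so the first 2 motifs can overlap. Fabp6 held 2 matches to the inverted repeat, AGGTGAATGACCA from -222 to -210 and AGGTGAATAACCT from -142 to -130 relative to the start, each with 2 mismatches. A match of this kind was present in 374 of 32851 promoter windows (1.14%) and in no other of these genes with an entry. The exact hexamer lay from -58 to -53 in Slc51a, from -203 to -198 in Slc51b, from -214 to -209 in Nr1h4 and from -64 to -59 in Nr5a2, and it was present in 16.3% of all windows. TGANTCA matched as TGATTCA from -118 to -112 in Slc10a2 and, not in capitals, as TGAGTCA from -232 to -226 in Slc51b. With any base at N it was present in 7.81% of all windows. These are matches of letters and were not tested as binding sites.

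Libraries carried the following features that bear on the values. Values have no named unit and were treated as RPKM-like, that is, as scaled by the size of the library and the length of the gene. The authors' values fell into 3 separately normalized sets (couples 1 and 2, couple 3, antibiotic couple), with library sums of 346794 to 397082, and read depth is unknown. Cftr, 10.8 ± 1.39 in untreated WT, was 3.19 ± 0.549 in untreated KO (SD, n = 3 each), and it was 13.8 and 4.94 in the antibiotic couple, lower in KO in 4 of 4 couples. The 12 enterocyte markers were above 0 in every library. Liver markers summed to 1.40 to 5.04 in untreated WT, to 192, 8.66 and 35.4 in KO libraries 1, 2 and 3, and to 441 (WT) and 392 (KO) in the antibiotic couple, where Apoa2 and Fgb were listed at 0. Car1, a colon marker, was 12.4 in KO library 1 and below 0.1 in the others. In the WT antibiotic library 423 genes had faulty values, none of them among the 10 genes or the other bile acid genes tested, and they were left out of each fit that used that library.

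In untreated mice, the FXR targets with hormone and repressor functions were lower in KO, the apical uptake transporter Slc10a2 was higher in KO in each couple, and the binding protein Fabp6 and the exporter subunit Slc51a were lower in KO in each couple. In limma's test on log2(value + 1), which ran over 11717 genes, 2 of the 10 genes were lower with an adjusted p under 0.05 (Fgf15 and Nr0b2) and none was higher, where 1.01% of all tested genes were lower and 1.15% higher. Nr0b2 reached the minimum level for testing only through its WT libraries, so it could be called in this direction alone. Fgf15 needed its WT libraries too, as it reached that level in KO library 3 (1.57) but not in KO libraries 1 and 2 (0.0454 and 0.455). The results of these 2 genes therefore give no support to the counts in this paragraph or to later counts of genes lower in KO. With the littermate couple as a block 4 of the 10 were lower (Fabp6 and Slc51a as well), against 9.91% of all genes lower and 8.40% higher in that fit. WT and KO values did not overlap for 5 genes lower in KO (Fgf15, Nr0b2, Fabp6, Slc51a and Cyp27a1) and for 1 gene higher in KO (Slc10a2), against 12.1% and 10.4% of all tested genes. The same 5 genes were lower in KO within all 3 couples and 3 genes (Slc10a2, Abcc3 and Nr1h4) were higher within all 3, against 32.5% and 28.1% of all tested genes. The 10 genes had a median log2 change of -0.60, and all tested genes one of -0.01. In bulk tissue fewer cells of a type and less RNA per cell cannot be told apart. Enterocyte markers were themselves 0.32 lower in KO on the log2 scale (0.15, 0.53 and 0.29 lower in couples 1, 2 and 3), with 7 of 12 lower in all 3 couples.

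**Figure D1:**
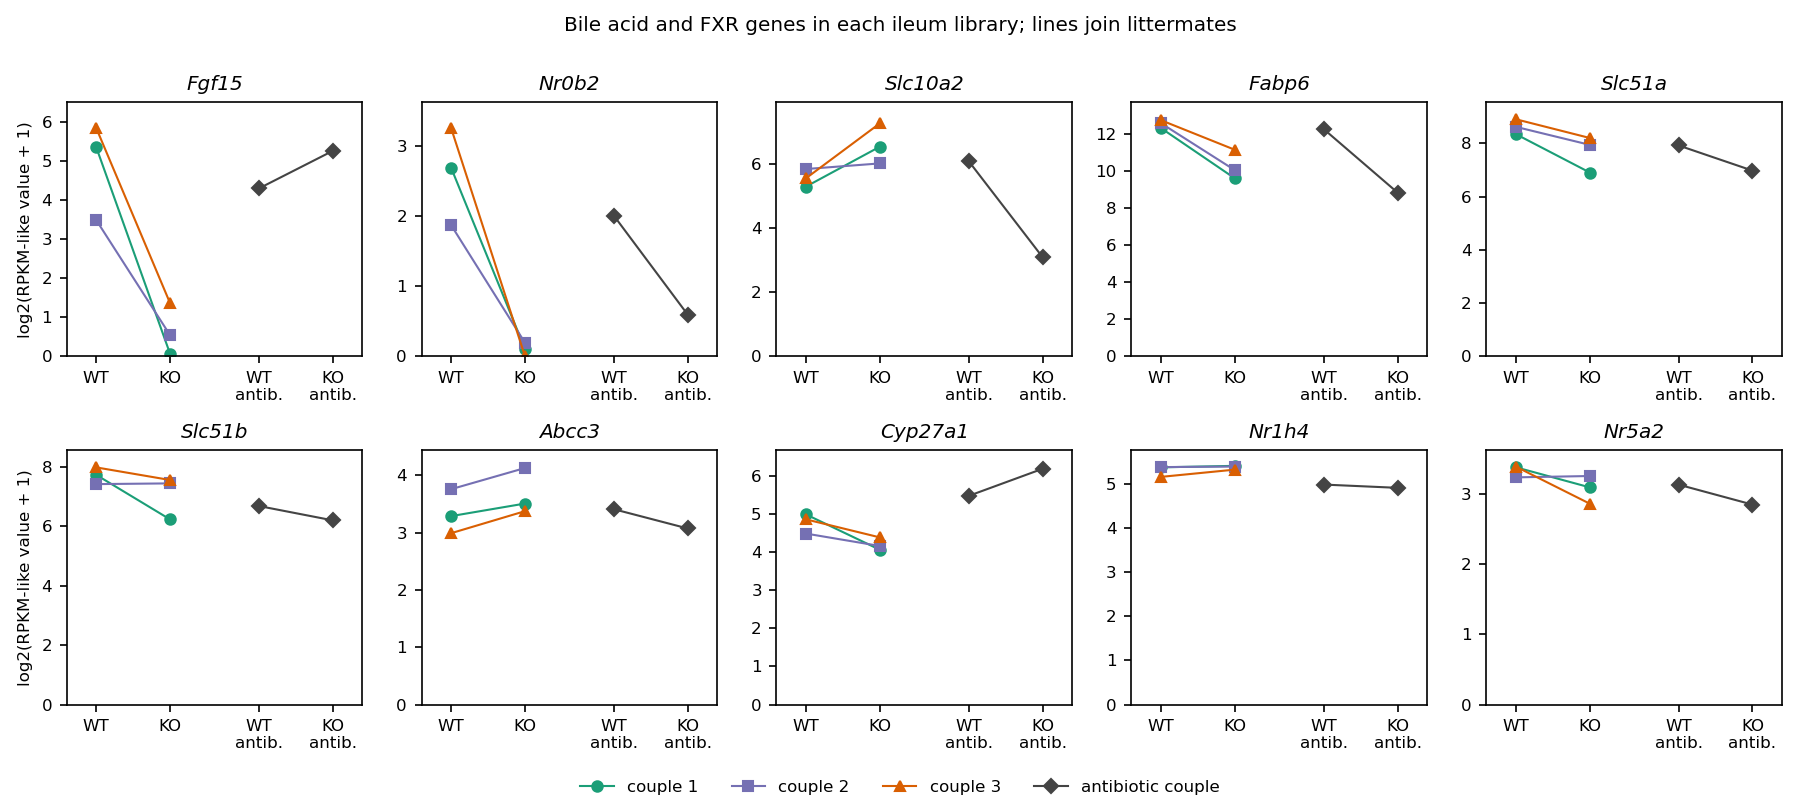
Level of each of the 10 genes, as log2(RPKM-like value + 1) on a vertical axis that starts at 0 and differs between panels, in the 3 untreated WT and 3 untreated KO libraries and in the 2 libraries of the antibiotic couple. Lines join littermates; Fgf15 drops from WT to KO in the 3 untreated couples and rises in the antibiotic couple, and Slc10a2 does the reverse.

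Slc10a2, on chromosome 8 (5083219 to 5105351, minus strand, GRCm38), encodes the sodium-dependent transporter for bile acid uptake. Its values were 38.2, 56.3 and 46.0 in WT against 92.0, 63.7 and 153.1 in KO libraries 1, 2 and 3. Each KO library lay above each WT library, by a small margin in couple 2 and by a wide one in couples 1 and 3. The log2 difference was 1.05 (SE 0.33), with a limma adjusted p of 0.174 (0.0762 with the couple as a block), so it did not pass the threshold. Subtracting the mean of the enterocyte markers from each library raises the untreated difference of every gene by 0.32. The Slc10a2 difference was then 1.37 and its limma adjusted p 0.00237. The subtraction also changes the variance estimates of a fit, here and wherever it is used below. For Fgf15 the untreated difference shrank from -4.24 to -3.92 while the limma adjusted p fell from 0.0185 to 1.62e-06. A lower adjusted p after the subtraction is thus not a larger difference.

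Fabp6, on chromosome 11 (43596049 to 43601540, minus strand), encodes the cytosolic carrier of bile acids in ileal enterocytes. Its values were 5128, 6151 and 6881 in WT against 779, 1059 and 2273 in KO libraries 1, 2 and 3. In WT it was among the most abundant messages of the ileum, at rank 7, 5 and 3 of all genes, and in KO it stood at rank 46, 34 and 19. The lowest WT library lay above the highest KO library. The log2 difference was -2.28 (SE 0.47), with an limma adjusted p of 0.0623, and of 0.0151 with the couple as a block. It also passed the threshold when the libraries were quantile normalized together (adjusted p = 0.0285), when no trend in the variance was fitted (0.0293) and when the enterocyte markers were subtracted (0.00175). With the block, these are the 4 of 8 alternative settings on all libraries in which it passed. Without 1 library each in turn it passed in 1 of 6 runs (limma adjusted p from 0.0432 to 0.211).

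Slc51a and Slc51b encode the 2 subunits of the basolateral exporter and lie on chromosomes 16 (32474504 to 32487879, minus strand) and 9 (65412714 to 65422955, minus strand). Slc51a was 323, 391 and 477 in WT against 119, 244 and 293 in KO libraries 1, 2 and 3. The groups did not overlap, with the widest gap in couple 1. Its log2 difference of -0.94 (SE 0.37) had an limma adjusted p of 0.274, and of 0.0352 with the couple as a block. Slc51b was 211, 170 and 252 in WT against 74.0, 173 and 187 in KO. Here the groups overlapped, and couple 2 had near-equal values. The log2 difference was -0.63 (SE 0.38, limma adjusted p = 0.470, and 0.193 with the block). Abcc3 (MRP3, chromosome 11, 94343295 to 94392997, minus strand), an export pump for conjugated organic anions, was 8.78, 12.5 and 6.95 in WT against 10.4, 16.5 and 9.38 in KO. It was higher in KO within each couple, but the groups overlapped, and couples differed more from each other than littermates did (log2 difference 0.32, SE 0.27, limma adjusted p = 0.616, and 0.0516 with the block).

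The ratio of Fabp6 to Slc10a2 sets the carrier against the uptake transporter within a library, which cancels any factor common to all genes of that library. It was 134, 109 and 150 in WT libraries 1, 2 and 3 (131 ± 20.4, SD, n = 3) and 8.47, 16.6 and 14.8 in KO (13.3 ± 4.29). All KO ratios lay far below all WT ratios. Neither gene overlapped between genotypes, and they differed in opposite directions, so this separation was fixed by the 2 genes. The exact permutation test (two-sided p = 0.1, the smallest that 3 against 3 can give) therefore adds no support. The ratio of Slc51a to Slc51b was 1.53, 2.30 and 1.90 in WT against 1.60, 1.41 and 1.56 in KO, and these groups overlapped (exact permutation test, two-sided p = 0.3).

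**Figure D2:**
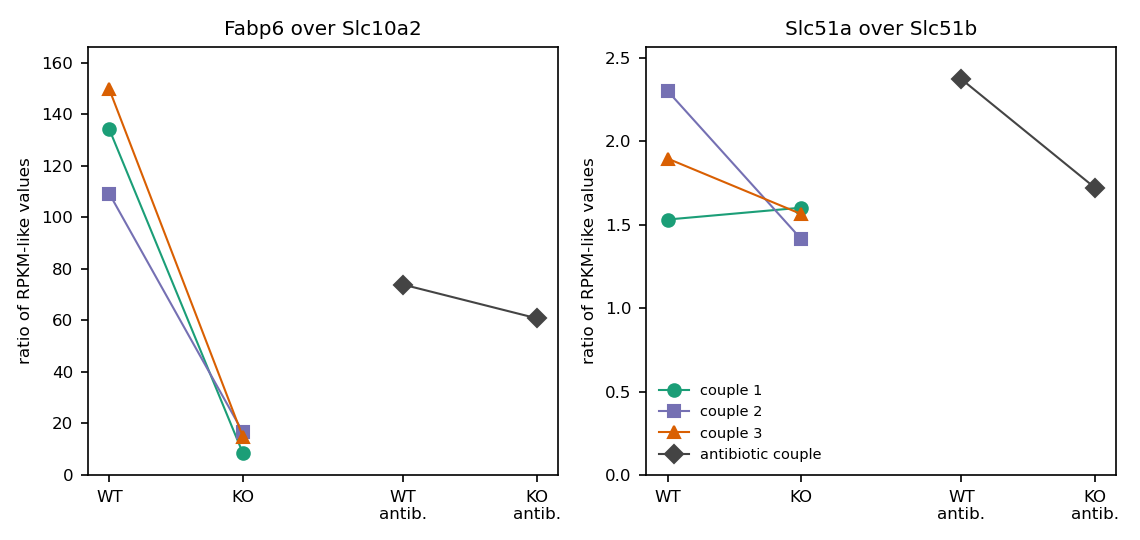
Ratio of RPKM-like values within each library, Fabp6 over Slc10a2 on the left and Slc51a over Slc51b on the right, on linear axes from 0. Lines join littermates; the left ratio is 109 to 150 in untreated WT, 8.47 to 16.6 in untreated KO, and 73.9 and 60.8 in the WT and KO libraries of the antibiotic couple.

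Nr1h4, the receptor FXR itself (chromosome 10, 89454234 to 89533585, minus strand), was 40.3, 40.5 and 34.6 in WT against 41.3, 40.8 and 38.9 in KO libraries 1, 2 and 3. The littermates lay close together in each couple, and the log2 difference was 0.07 (SE 0.16, limma adjusted p = 0.883). Nr5a2 (LRH-1, chromosome 1, 136842571 to 136960448, minus strand) was 9.39, 8.40 and 9.45 in WT against 7.52, 8.53 and 6.25 in KO. Its groups overlapped through couple 2, and the log2 difference was -0.26 (SE 0.16, limma adjusted p = 0.472).

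Fgf15 (chromosome 7, 144896531 to 144900953, plus strand), the enterocyte hormone, was 39.9, 10.2 and 56.4 in WT against 0.0454, 0.455 and 1.57 in KO libraries 1, 2 and 3. Every KO value lay below every WT value, and couple 2, the male couple, had the lowest WT value and the smallest difference between littermates. On the log2(value + 1) scale the couples differed by -5.29, -2.95 and -4.48, and the fitted change was -4.24 (SE 0.60, limma adjusted p = 0.0185, and 0.0143 with the block). Nr0b2 (SHP, chromosome 4, 133553376 to 133556536, plus strand) was 5.43, 2.65 and 8.52 in WT against 0.0750, 0.143 and 0 in KO. The couples kept the same order as for Fgf15 in WT, lowest in couple 2 and highest in couple 3. Its fitted change was -2.50 (SE 0.33, limma adjusted p = 0.0143, and 0.0173 with the block). Without KO library 1 none of the 10 genes passed, although the changes were about as large, at -3.95 for Fgf15 (limma adjusted p = 0.0660) and -2.51 for Nr0b2 (0.0548). Fgf15 also lost its call without WT library 1 (-4.01, limma adjusted p = 0.0592), WT library 3 (-3.77, 0.0550) or KO library 2 (-4.18, 0.0567).

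Cyp27a1, the sterol 27-hydroxylase of the alternative bile acid synthesis pathway (chromosome 1, 74713574 to 74737892, plus strand), was 30.7, 21.4 and 28.0 in WT against 15.7, 16.8 and 19.9 in KO libraries 1, 2 and 3. The groups did not overlap, though the highest KO library came close to the lowest WT library. The log2 difference was -0.58 (SE 0.19, limma adjusted p = 0.193, and 0.0504 with the block).

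In the antibiotic couple, 5 of the 10 genes (Fgf15, Slc10a2, Cyp27a1, Abcc3 and Nr1h4) differed between KO and WT in the direction opposite to that of all 3 untreated couples, against 25.0% of the genes tested in all 8 libraries. This couple has 1 animal of each genotype and no replicate. Fgf15 was 18.6 in WT and 37.2 in KO, 2.00-fold higher in KO. The KO value exceeded every untreated KO value by a wide margin and lay within the untreated WT range. Slc10a2 was 67.1 in WT and 7.53 in KO, 8.90-fold lower in KO. That KO value was the lowest Slc10a2 value of the 8 libraries, and the WT value was above the untreated WT range. Cyp27a1 was 43.4 in WT and 71.6 in KO, 1.65-fold higher in KO, and both values lay above all untreated libraries. The summed liver markers of this couple (441 and 392) were also above those of all untreated libraries, through Alb (397 and 357), while their mean log2 level was below that of KO library 1 (3.16 and 2.92 against 4.03); their part in the Cyp27a1 values was not tested. The Abcc3 values were 9.64 and 7.42 and those of Nr1h4 30.5 and 28.9, differences that are small beside those of the other 3 genes.

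**Figure D3:**
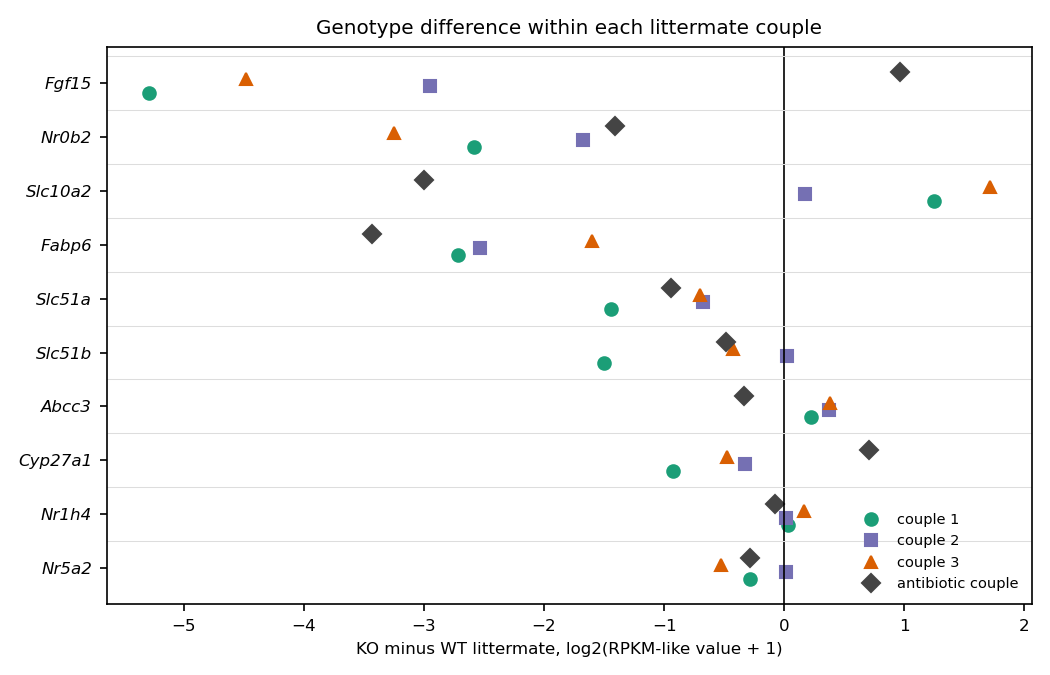
Difference between KO and WT littermates, on the log2(RPKM-like value + 1) scale, for each of the 10 genes in couples 1, 2 and 3 and in the antibiotic couple. The diamond of the antibiotic couple lies on the other side of 0 from the 3 untreated couples for Fgf15 (0.96), Slc10a2 (8.90-fold lower in KO), Cyp27a1 (0.71), Abcc3 (-0.34) and Nr1h4 (-0.07).

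The other 5 genes were lower in KO in the antibiotic couple. Fabp6 was 4955 in WT and 458 in KO, 10.8-fold lower in KO, and the KO value was the lowest of the 8 libraries. Nr0b2 was 3.01 in WT and 0.510 in KO. Unlike Fgf15, this other FXR target was lower in the KO animal with antibiotics, although its value was above those of the 3 untreated KO libraries. These KO values were all under 1, where the normalization sets differ. Genes above 0 numbered 20896 in KO libraries 1 and 2, 11931 in KO library 3 and 13749 in the KO antibiotic library. Slc51a was 241 and 125, Slc51b was 102 and 72.4, and Nr5a2 was 7.75 and 6.19 in WT and KO. Lower by at least 2-fold in KO, on the log2(value + 1) scale, were Nr0b2, Slc10a2 and Fabp6, against 0.964% of all tested genes. Nr0b2 was tested only because of its WT libraries and gives no support to this count. No gene of the 10 was higher by that margin, against 3.29% of all tested genes. With both Fabp6 and Slc10a2 low in the KO animal, the ratio of Fabp6 to Slc10a2 was 73.9 in WT and 60.8 in KO, between the untreated WT and KO ranges in both. The ratio of Slc51a to Slc51b was 2.37 and 1.72.

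The dependence of the genotype difference on antibiotics was tested as an interaction in limma over the 8 libraries, in which the spread comes from the untreated libraries. For Slc10a2 the log2 interaction was -4.04 (SE 0.65, adjusted p = 0.275). For Fgf15 it was 5.20 (SE 1.21, adjusted p = 0.572), and for Cyp27a1 1.29 (SE 0.38, adjusted p = 0.923). None passed after adjustment over 11520 genes, where 0 genes did, with the block as well as without it, and 483 genes (4.19%) had an unadjusted p under 0.05, these 3 among them. After subtraction of the enterocyte marker mean, 2 of the 10 genes passed, Slc10a2 (-4.18, limma adjusted p = 7.42e-05) and Fgf15 (5.07, adjusted p = 0.00333). That subtraction shifts the interaction of every gene by -0.13, and 0.191% of all genes passed with it.

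Set against the untreated libraries of the same genotype, the antibiotic KO library was above the untreated range for Fgf15, Nr0b2 and Cyp27a1. The Nr0b2 value (0.510) was under 1. The library was within the range for Slc51a and below it for the remaining members. The antibiotic WT library was above the range for Slc10a2 and Cyp27a1, within it for Fgf15, Nr0b2 and Abcc3, and below it for the remaining members. The share of all genes outside these ranges was not computed, so nothing is drawn from how many members lay outside. In KO, limma over the 8 libraries gave a log2 difference between antibiotics and none of -3.51 for Slc10a2 (SE 0.46, adjusted p = 0.0182), a value 13.7-fold below the untreated KO mean. Cyp27a1 differed by 1.98 (SE 0.27, adjusted p = 0.0229), a value 4.11-fold above the untreated KO mean. These were the calls among the 10 genes, 1 in each direction, against 0.651% of genes higher and 0.729% lower. Slc10a2 kept its call in each of the 6 runs without 1 untreated library, and Cyp27a1 lost it without KO library 1 (1.91, limma adjusted p = 0.0586) or KO library 2 (1.96, 0.0678). Fgf15 differed by 4.60 (SE 0.85, limma adjusted p = 0.0524), just short of the threshold. In WT none of the 10 genes passed, where 1 gene of 11520 (0.00868%) did; the largest log2 differences were -1.03 for Slc51b (SE 0.53), -0.70 for Slc51a (SE 0.52) and 0.70 for Cyp27a1 (SE 0.27). In these contrasts treatment cannot be told apart from the couple, its litter and its normalization set, and each contrast shares its untreated libraries with the genotype comparison above.

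Other genes were taken from a list of 60. Beside genes of bile acid handling, it held 6 genes otherwise tied to FXR and 11 regulators of ileal bile acid genes. Of the 60, 59 were in the table and 46 were tested in untreated mice. Their median log2 change was -0.31, against -0.01 over all tested genes; 3 were lower and 1 higher in KO, and 13 were lower and 1 higher with the couple as a block. Over all tested genes 1.01% were lower and 1.15% higher, and 9.91% and 8.40% with the block. Abcb1a, an apical efflux pump, was 223, 177 and 129 in WT against 59.4, 45.8 and 65.4 in KO libraries 1, 2 and 3 (log2 change -1.60, limma adjusted p = 0.0267). Hsd17b4, the peroxisomal enzyme of side-chain shortening, was 64.9, 67.6 and 88.4 in WT against 21.4, 20.7 and 23.1 in KO (-1.70, adjusted p = 0.00644). Ppara, a nuclear receptor for fatty acids listed among the regulators, was 15.0, 24.5 and 19.9 in WT against 4.89, 7.04 and 3.48 in KO (-1.78, adjusted p = 0.0191). For these 3 genes no KO library reached the lowest WT library. Nos2, inducible nitric oxide synthase and a gene tied to FXR in the ileum, was the 1 higher gene, at 31.2, 16.1 and 19.6 in WT against 61.3, 82.0 and 95.4 in KO (1.82, adjusted p = 0.0224).

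By role, the 6 detoxification genes had a median log2 change of -0.63, with none called and 3 lower with the block (9.91% of all tested genes were). Cyp3a11, a cytochrome P450 that hydroxylates bile acids, was 216, 33.8 and 200 in WT against 11.7, 3.12 and 20.3 in KO (log2 difference -3.47, limma adjusted p = 0.0913, and 0.00554 with the block). The spread between WT libraries was wide, with couple 2 far below the others, as for Fgf15. Cyp3a25, of the same P450 subfamily (log2 difference -2.33), and Ugt1a1, a glucuronosyltransferase (-0.88), were the other 2 lower with the block. Also lower in that fit alone were the apical export pump Abcc2 (-1.17), the peroxisomal oxidase Acox2 (-0.81), the conjugating enzyme Baat (-0.65) and the carbonic anhydrase Car12 (-0.56). Of the 7 tested receptors and partners none was called and 2 were lower with the block. Those were Vdr, the vitamin D receptor that also binds lithocholic acid (log2 difference -0.66), and Rxra, the heterodimer partner of FXR (-0.52). Nr1i2, the xenobiotic receptor PXR, was 37.0, 34.5 and 42.6 in WT against 21.9, 32.6 and 30.4 in KO, with no overlap but without a call in either fit. The epithelial transcription factors Hnf4a (152 to 240 in WT, 161 to 215 in KO) and Gata4 (12.3 to 18.2 and 12.5 to 19.3) had overlapping groups. Fgfr4, the FGF15 receptor, was at 2.28 to 3.97 in WT and 1.44 to 2.29 in KO (-0.49, lower with the block), and its co-receptor Klb was at 0.305 or less. The hepatic enzymes Cyp7a1 and Cyp8b1, the membrane receptor Gpbar1 and the liver transporters Slc10a1 and Abcb11 were at 0.681 or less in all libraries.

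In the antibiotic couple 27 of 47 tested genes of this list were lower and 20 higher in KO, with a median log2 difference of -0.07 (-0.04 over all tested genes). Over all genes tested, 6526 of 11520 were lower and 4969 higher, a similar share. Cyp3a11 was 121 in WT and 403 in KO. Like Fgf15, it was higher in KO in this couple and lower in KO in the other 3; liver also expresses Cyp3a11 strongly, and the part of the liver markers in its values was not tested. Abcb1a was 290 and 111 and Nos2 0.862 and 3.43, both on the same side as in untreated mice. Hsd17b4 was 132 and 104 and Ppara 30.1 and 24.9, closer together than in any untreated couple. Between antibiotics and none in KO, limma called Hsd17b4 (log2 change 2.21), Slc27a2, an acyl-CoA synthetase (2.77), Nr1i3, the receptor CAR (1.60), and Ppara (2.12) higher and Nos2 lower (-4.16). Their adjusted p ranged from 0.00891 to 0.0457, and 0.651% of all genes were called higher and 0.729% lower. The antibiotic arm of this contrast is 1 library, with liver markers summing to 392, whose part in these values was not tested.

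**Figure D4:**
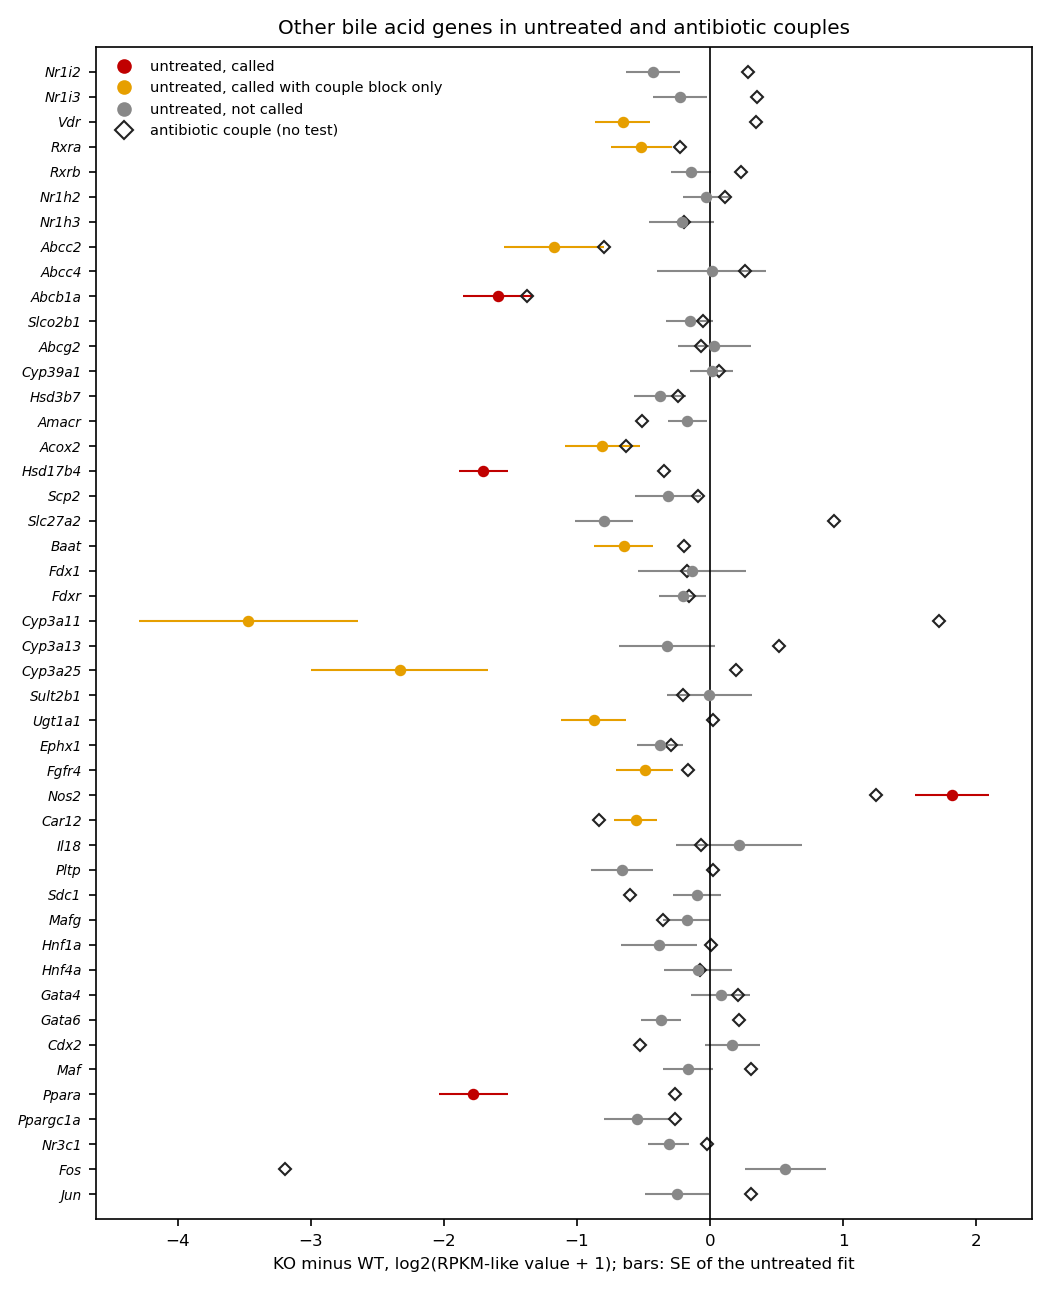
Difference between KO and WT, on the log2(RPKM-like value + 1) scale, for the 46 tested genes of the bile acid list: circles are the fitted untreated change with its SE (n = 3 per genotype), coloured by call, and open diamonds the antibiotic couple. Abcb1a, Hsd17b4 and Ppara are called lower and Nos2 higher, and Cyp3a11 lies at -3.47 in untreated mice and at 1.72 in the antibiotic couple.

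Likeness between genes was measured as the root mean square distance between their 4 couple differences over 11519 genes, as a description. The genes nearest to Fgf15 were Cyp3a11 (distance 0.95 on the log2 scale), Lct, which encodes lactase (1.18), Slc28a1, a nucleoside transporter (1.30), Ces2a, a carboxylesterase (1.37), and Pdk4, a pyruvate dehydrogenase kinase (1.41). In the antibiotic couple Cyp3a11 (log2 difference 1.72), Slc28a1 (0.40) and Pdk4 (2.19) were higher in KO, Lct was near level (0.02) and Ces2a was lower (-0.42). Nearest to Fabp6 were Dio1, an iodothyronine deiodinase (0.92), Hsd3b3 (1.08), Suox, which encodes sulfite oxidase (1.11), Tppp (1.13) and Tmem117 (1.18). Near to Slc10a2 were Fos (0.73), Gstp2 (0.94), Gprc5a (0.99) and Thrsp (1.01). Thrsp differed from Slc10a2 in couple 2, where it was lower in KO (-1.45). Fos was 24.7, 24.0 and 19.4 in WT against 55.1, 29.9 and 23.6 in KO libraries 1, 2 and 3, and 109 and 11.0 in the WT and KO libraries with antibiotics. It was thus higher in KO in the 3 untreated couples, with a fitted log2 difference of 0.57 (limma adjusted p = 0.421), and 9.91-fold lower in the antibiotic couple.

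Markers of other cell types moved beside these genes. The proximal small intestine list was 0.99 lower in untreated KO as a mean log2 difference, with sums of 434 to 955 in WT and 233 to 327 in KO. Its sums were 1614 and 1846 in the antibiotic couple, and Fabp1 was the largest part of each sum. Its 6 genes did not move as 1, with 4 lower in KO in all 3 untreated couples and 1, Bmp8b, higher in all 3. Leukocyte markers were 0.65 higher in untreated KO on average (sums of 68.1 to 118 in WT and 133 to 262 in KO), with couple differences of 0.66, -0.25 and 1.53, and 1.63 higher in the KO antibiotic library (sums of 47.2 and 173). Smooth muscle markers differed by -0.21 (0.41, -0.84 and -0.21 in couples 1, 2 and 3), colon and caecum markers by 0.14 and crypt markers by 0.03 in untreated mice. The part of these lists in the results for the 10 genes was not tested. After subtraction of the enterocyte marker mean 4 of the 10 genes passed in untreated mice: Fgf15 (-3.92), Nr0b2 (-2.18) and Fabp6 (-1.96) lower and Slc10a2 (1.37) higher. With the upward shift this makes in every gene, 0.614% of all genes were lower and 2.43% higher (72 and 285 genes, against 118 and 135 without it). Fgf15 and Nr0b2 were tested only because of their WT libraries, so they give no support to the count of lower genes.

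**Figure D5:**
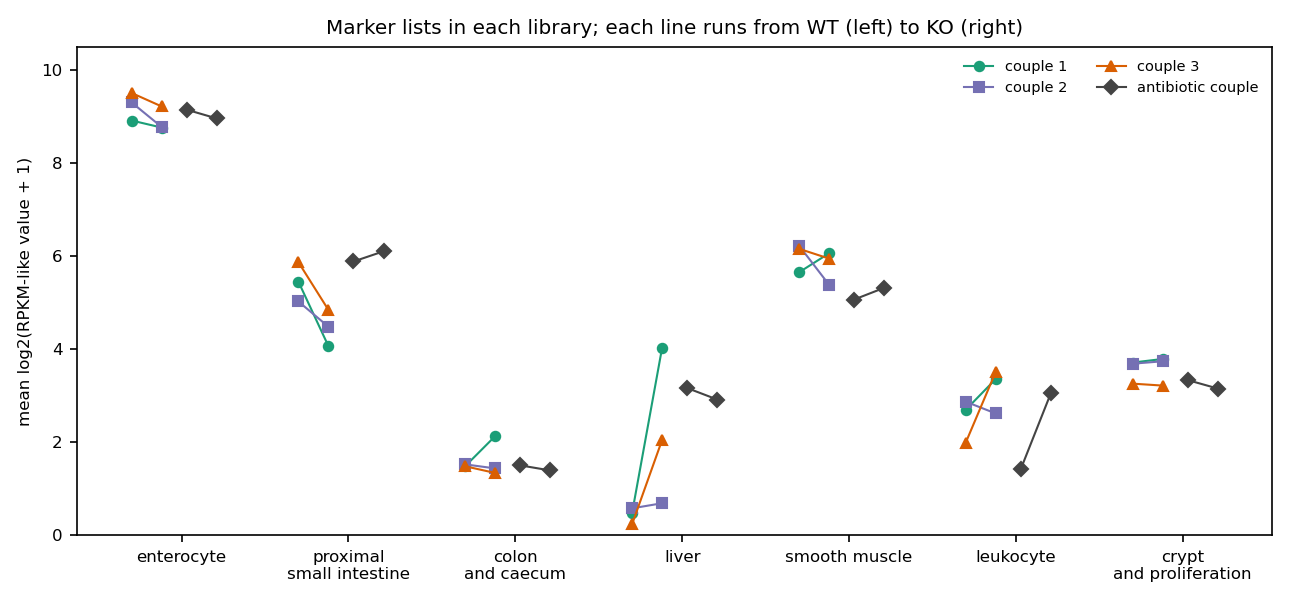
Mean log2(RPKM-like value + 1) of each marker list in each library, from WT on the left to its KO littermate on the right of each line. Enterocyte means lie between 8.77 and 9.51 in all 8 libraries, and liver means are highest in KO library 1 (4.03) and in the antibiotic couple (3.16 and 2.92).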

How the data were processed

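RNA from 8 ileum sections was sequenced as polyadenylated RNA libraries on an Illumina HiSeq or an Ion Proton instrument, per the labels' protocols; which library ran on which is not given in the sources used here. Per the series' design text, the authors mapped the reads to GRCm38 (release 76) with CLC Genomics Workbench 7.5. The deposited values have no named unit and were treated as RPKM. The reasons were that library sums differ, except among the libraries of couples 1 and 2 (351707 each), and that values fall with exon length (log2 slopes -0.61 to -0.40). The authors' normalization made the sorted values identical within couples 1 and 2; 3 sets were found. Depth is unknown, so no counting interval was computed.

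Tests used log2(value + 1), a scale on which changes of low genes come out too small. A gene had to reach 1 in 3 or more libraries, and limma 3.58.1 was run (R 4.3.3, variance trend, Benjamini-Hochberg adjustment, threshold 0.05), without a block. The scripts were tested on simulated data. Per the labels each couple is a pair of littermates, and they deviated together (correlations 0.62, 0.64 and 0.51 across 11717 genes), so blocked values stand beside results they change. Couple 3 is also a normalization set of its own, so pairing and set cannot be told apart in these correlations or in the block. Each library is 1 mouse. Of the genes in the WT antibiotic library, 376 shared tied values, 45 were at 0 and 2 lay far below their littermate; they were left out of the 8-library fits, a rule made after seeing the data. The genes named were these 10, those of the other bile acid genes called in either untreated fit, a set of receptors, enzymes and transcription factors whatever their values (Malrd1, also on it, was not analysed here), the 5 nearest genes by likeness (1 is not reported here), and Cftr. The members and lists were chosen with earlier results of these data known. Gene positions are from GENCODE annotation of GRCm38. Alternatives changed the pseudocount, the filter, the normalization, the trend, the block, the enterocyte adjustment and the libraries used.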

Additional observations from a re-analysis of the deposited data

Results flagged for a closer look

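For 5 of the 10 genes the KO and WT littermates differed in 1 direction in the 3 untreated couples and in the other in the antibiotic couple. The log2 interaction was 5.20 for Fgf15, -4.04 for Slc10a2, 1.29 for Cyp27a1, -0.66 for Abcc3 and -0.14 for Nr1h4. The limma test of this difference did not pass after adjustment for any of the 5 (adjusted p from 0.275 to 0.999), and the antibiotic arm has 1 couple. Among all tested genes 25.0% had this pattern of directions.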

How the results depend on the processing

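No called result changed sign under the alternatives run. With 3 mice per genotype, unknown depth and 1 antibiotic couple, counts of calls moved more than the differences did. In untreated mice 253 genes were called, 2145 with the couple as a block (the pairing of littermates), 11 with no filter, 62 to 141 without 1 library, 0 without 1 couple, and 464, 421 and 523 without couple 1, 2 or 3 and with the block. Of the 10 genes 2 were called, 4 with the block, 0 with no filter, 4 after the enterocyte adjustment, 0 to 3 without 1 library, 0 without 1 couple, and 1 to 2 without 1 couple and with the block. Of the other bile acid genes 4 were called, 14 with the block, 0 with no filter, 1 to 3 without 1 library, 0 without 1 couple, and 3 to 7 without 1 couple and with the block. For the interaction 0 genes were called, 22 after the enterocyte adjustment and 74 with the faulty values of the WT antibiotic library kept (an alternative chosen after seeing the data); of the 10 genes 2 were called after the adjustment. Between antibiotics and none in WT 1 gene was called, 2 with a pseudocount of 0.1 or without WT library 1, 0 with no filter, 37 after the adjustment and 145 with faulty values kept. In KO 159 genes were called, 0 with no filter and 60 to 155 without 1 library; of the 10 genes 2, 0 and 1 to 3. The cause was not tested. Nr0b2 fell under the filter when a WT library was left out, and Fgf15 and Nr0b2 did when couple 3 was. Among the other bile acid genes, the untreated call of Abcb1a was lost without WT library 1 or 2 or any of the 3 KO libraries, that of Ppara without WT 3, KO 1 or KO 3, and that of Nos2 without WT 2, WT 3, KO 2 or KO 3; Ppara lost its KO antibiotic call without WT 1, WT 3, KO 1 or KO 3. Without 1 library each in turn, Fgf15 kept its untreated call in 2 of 6 runs and Nr0b2 in 2 of 3, and Slc10a2 its KO antibiotic call in 6 of 6 and Cyp27a1 in 4 of 6. The block could not be fitted for the antibiotic contrasts, which coincide with a couple; the fit without a trend and those without a couple were not run for them.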
